A study of Mustela putorius furo with 2 samples.

Results

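The 6 receptor genes followed here through the excitatory neurons of the ferret cortex were MCHR2, FSHR, PRLR, RXFP1, LGR5 and GFRA1. They are among the 28156 genes in the deposited feature tables, and each matched 1 row of both matrices by its symbol (ENSMPUG00000001656, ENSMPUG00000010921, ENSMPUG00000015126, ENSMPUG00000018105, ENSMPUG00000017489 and ENSMPUG00000003520 in the same order). They were chosen by their UMI counts, because they stood among the leading genes of excitatory subgroups in these same nuclei. Their enrichment in subgroups of excitatory neurons is therefore a description of how they were picked, and no test was made of it.

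The samples were 2 single-nucleus RNA-seq libraries of somatosensory cortex from ferrets (Mustela putorius furo), 1 from tissue labelled upper band of cortex and 1 from tissue labelled deeper band of cortex. By title they are mutant replicate 1 and mutant replicate 2, and each band is known from the tissue region label alone. The genotype given for both is DCX knockout (a knockdown, in the design text), so the loss of DCX, which encodes the microtubule-binding protein doublecortin, is shared by both groups and does not distinguish them. The labels used here give no age, number of animals or treatment, and tissue without the DCX change was not analysed here. With 1 library per band there is no replicate, so no p-value is given, and every interval is a 95% interval for counting error only.

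The receptors belong to different signalling systems. MCHR2 is a G protein-coupled receptor for the hypothalamic peptide melanin-concentrating hormone and is a receptor that rodents lack. FSHR, RXFP1 and LGR5 are leucine-rich repeat G protein-coupled receptors: FSHR binds follicle-stimulating hormone and is known from the gonads, RXFP1 binds relaxin, and LGR5 binds R-spondins, which raise Wnt signalling, and marks stem cells in several epithelia. PRLR is a class I cytokine receptor for prolactin that signals through JAK2 and STAT5, and GFRA1 is a lipid-anchored co-receptor that presents glial cell line-derived neurotrophic factor (GDNF) to the tyrosine kinase RET or to NCAM1. In mature cortex none of them is a textbook marker of excitatory neurons, unlike CUX2 and RORB, known from upper layers and layer 4, FEZF2, known from layer 5, and FOXP2, known from layer 6.

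The upper-band library gave 6261 nuclei with a median of 7992 unique molecular identifiers (UMIs), and the deeper-band library gave 8150 nuclei with a median of 4887.5. DCX itself, counted over all nuclei, stood at 78.5 and 77.2 UMIs per 1000000 (CPM), which checks nothing about the genotype because the altered part of the gene is not given in the sources used here. Excitatory neuron-like nuclei numbered 3184 (50.9%) and 3454 (42.4%), with similar median depths of 10750.5 and 10400 UMIs. Their 10 excitatory markers were all detected in both bands and summed to 2031 and 2241 CPM. Against this stood 168 and 128 CPM for 13 inhibitory neuron markers and 170 and 110 CPM for 10 astrocyte markers. The 6 oligodendrocyte precursor markers summed to 165 and 223 CPM and 10 oligodendrocyte markers to 102 and 98.7 CPM. The 15 vascular markers summed to 52.9 and 45.5 CPM and 11 microglia markers to 15.2 and 11.4 CPM. The largest clusters of the class were not the same in the 2 bands. In the upper band the clusters led by FOXP2 and SYT6 (17.0% of excitatory nuclei), IQGAP2 and LGR5 (15.9%) and GALNT14 and SEMA3E (13.4%) were the largest. In the deeper band those led by SYT10 and PAPSS2 (28.1%), PTGIS and TEAD4 (24.7%) and MCHR2 and CHRDL1 (16.3%) were. The libraries had 24 barcodes in common.

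Excitatory nuclei held 37351986 of the 52352189 UMIs of upper-band nuclei and 38193559 of the 53363232 UMIs of deeper-band nuclei, which is the base for the shares of UMIs given here. MCHR2, FSHR and PRLR had most of their UMIs in excitatory neurons, and RXFP1 and GFRA1 had a smaller part there. For RXFP1, LGR5 and GFRA1 another cell class held a higher level in both bands. The plot of level by cell class shows each receptor in 7 classes.

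**Figure D1:**
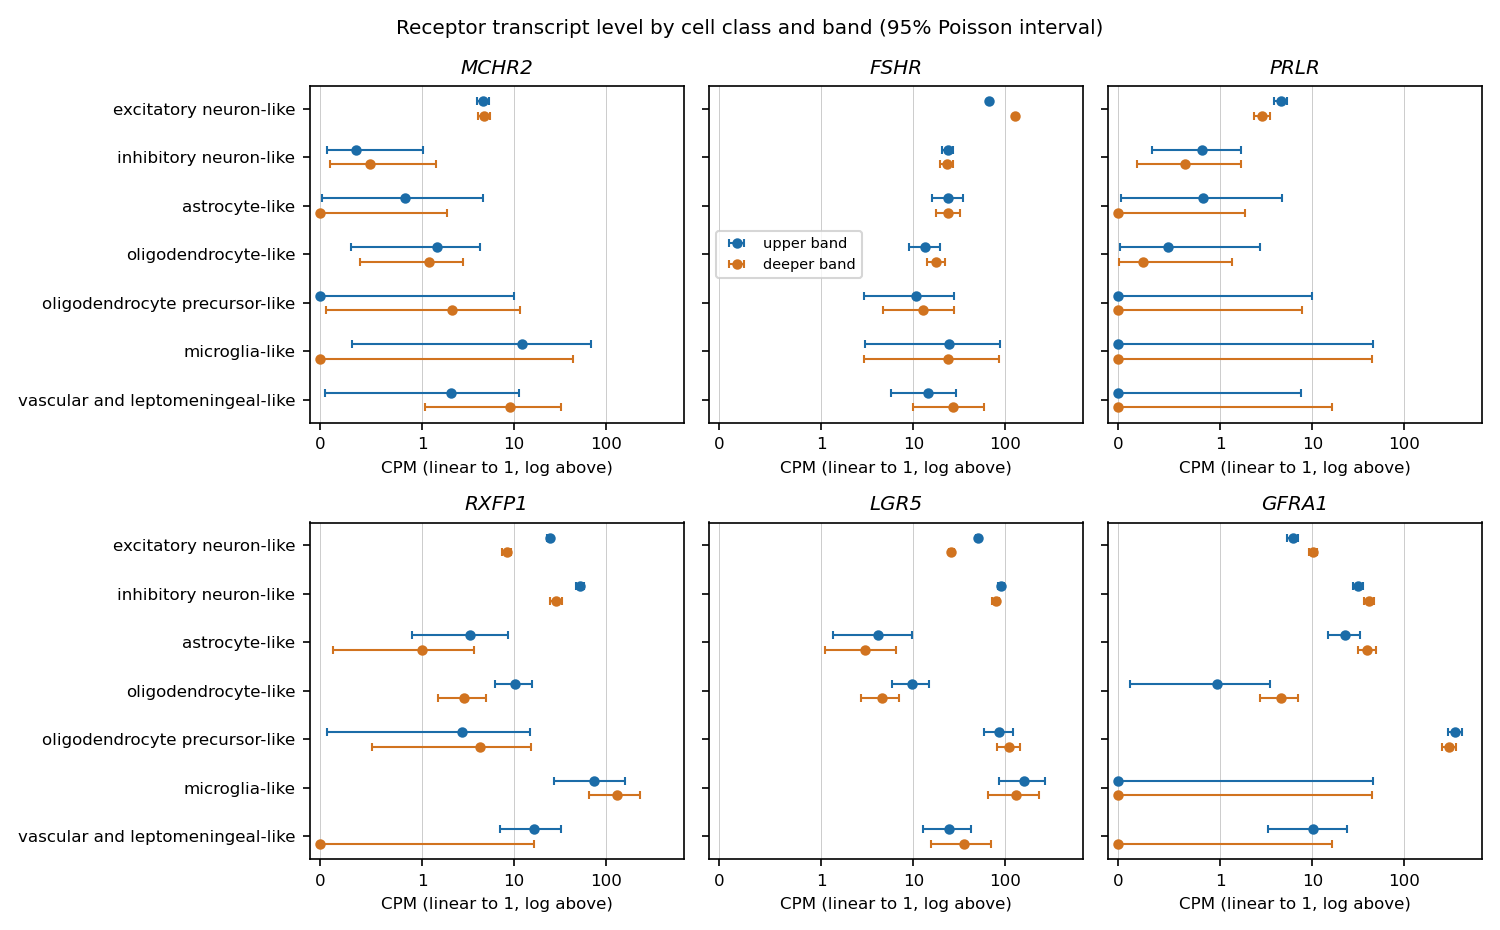
Level of each receptor gene in CPM (linear to 1 and logarithmic above) in 7 cell classes of the upper-band (blue) and deeper-band (orange) libraries; points are class sums and bars 95% Poisson intervals. MCHR2, FSHR and PRLR stand highest or within counting error of the highest in excitatory neuron-like nuclei, whereas GFRA1 stands highest in oligodendrocyte precursor-like nuclei at 354 and 307 CPM.

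MCHR2, the second receptor for melanin-concentrating hormone, gave 171 UMIs in upper-band and 180 UMIs in deeper-band excitatory nuclei. That is 4.58 CPM (3.92 to 5.32) and 4.71 CPM (4.05 to 5.45). These UMIs were 94.0% and 93.8% of all MCHR2 UMIs in the 2 libraries. Inhibitory neurons gave 0.350 and 0.489 CPM, from 3 UMIs in each band. A UMI was found in 4.49% and 4.52% of excitatory nuclei. Oligodendrocyte-like nuclei, taken as the background class and shallower (2206 and 1861 UMIs per nucleus at the median), had a UMI in 0.349% and 0.239% of cases. After all nuclei were thinned to 1500 UMIs, the excitatory shares were 0.537% and 0.551% and the oligodendrocyte shares 0.257% and 0.240%, with overlapping intervals. At that depth the signal in excitatory nuclei was not distinguishable from background by share, and any contrast rests on the full counts. By those counts MCHR2 stood at 1.45 CPM (0.298 to 4.23) and 1.19 CPM (0.386 to 2.77) in oligodendrocyte-like nuclei. The interval overlaps the excitatory one in the upper band and not in the deeper band.

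FSHR, the follicle-stimulating hormone receptor, was the receptor found in the most excitatory nuclei. Its 2503 upper-band UMIs amounted to 67.0 CPM (64.4 to 69.7) and its 4860 deeper-band UMIs to 127 CPM (124 to 131). The shares of excitatory nuclei with a UMI were 34.3% (32.6 to 36.0) and 44.9% (43.3 to 46.6). The oligodendrocyte-like shares were 3.14% and 3.44%. After thinning, 8.14% and 14.2% of excitatory and 1.80% and 2.94% of oligodendrocyte-like nuclei were positive. Inhibitory neurons (23.8 and 23.1 CPM) and astrocytes (24.1 and 24.1 CPM) held FSHR at levels that did not differ between bands beyond counting error.

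PRLR, the prolactin receptor, gave 168 upper-band and 108 deeper-band excitatory UMIs, or 4.50 CPM (3.84 to 5.23) and 2.83 CPM (2.32 to 3.41). It was detected in 4.81% and 2.81% of excitatory nuclei. Its counts in the background class were low: 1 UMI among 859 upper-band and 1 among 2096 deeper-band oligodendrocyte-like nuclei. Excitatory neurons held 94.9% and 93.9% of its UMIs. After thinning to 1500 UMIs the excitatory shares were 0.600% (0.361 to 0.935) and 0.232% (0.100 to 0.457), and the oligodendrocyte-like shares were 0 (0 to 0.474) and 0.0600% (0.00152 to 0.334). These intervals overlap within each band, so at that depth PRLR was not distinguishable from background by share either. By the full counts, oligodendrocyte-like levels were 0.482 CPM (0.0122 to 2.69) and 0.238 CPM (0.00602 to 1.32), below the excitatory intervals, from 1 UMI in each band.

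RXFP1, the relaxin receptor, stood at 24.5 CPM (22.9 to 26.1) in upper-band and 8.27 CPM (7.39 to 9.24) in deeper-band excitatory nuclei, from 915 and 316 UMIs. Its level in inhibitory neurons was higher, at 52 CPM (47.3 to 57.0) and 28.4 CPM (24.3 to 32.9). The share of nuclei with a UMI was similar in both neuron classes of the upper band, 12.5% in excitatory and 12.9% in inhibitory nuclei, and was 3.65% and 5.97% in the deeper band. In oligodendrocyte-like nuclei the shares were 2.33% and 0.573%. Excitatory neurons held 62.8% and 56.3% of RXFP1 UMIs. Microglia-like nuclei gave 73.3 CPM (26.9 to 160) and 132 CPM (65.8 to 236), from only 6 and 11 UMIs in 47 and 66 nuclei. Within the inhibitory class the gene was concentrated in the cluster led by CALB1, LYPD6 and SHISA6, whose 10 leading genes include the interneuron peptide SST, at 145 CPM in 353 upper-band nuclei and 87.6 CPM in 209 deeper-band nuclei. This cluster, and the other non-excitatory clusters named for a receptor, were singled out after their values had been seen.

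LGR5, the R-spondin receptor, gave 1889 UMIs and 50.6 CPM (48.3 to 52.9) in upper-band excitatory nuclei and 991 UMIs and 25.9 CPM (24.4 to 27.6) in the deeper band. Inhibitory neurons stood above both, at 89.4 CPM (83.2 to 96.0) and 79.0 CPM (72.2 to 86.4), and oligodendrocyte precursors at 85.8 and 109 CPM. The shares with a UMI were 21.4% and 12% of excitatory, 37.1% and 34.4% of inhibitory and 2.1% and 0.811% of oligodendrocyte-like nuclei. Among inhibitory neurons the cluster led by CALB2 and VIP stood at 140 and 136 CPM. Microglia-like nuclei gave 159 and 132 CPM from only 13 and 11 UMIs in 47 and 66 nuclei. Those same nuclei held inhibitory neuron markers at a summed 1076 and 1150 CPM, mostly ERBB4, with DLX1, DLX2 and DLX5 at 0 UMIs in both bands, and the part of other cells' RNA in this value and in that of RXFP1 was not tested.

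GFRA1, the GDNF co-receptor, was lower in excitatory neurons than in inhibitory neurons, astrocytes and oligodendrocyte precursors. Its 227 upper-band excitatory UMIs amounted to 6.08 CPM (5.31 to 6.92) and its 385 deeper-band ones to 10.1 CPM (9.10 to 11.1). Inhibitory neurons stood at 31.4 and 41.1 CPM, astrocytes at 22.4 and 39.7 CPM, and oligodendrocyte precursors, the dividing glia that give rise to oligodendrocytes, at 354 CPM (296 to 420) and 307 CPM (259 to 361). A UMI was found in 60.3% and 45.1% of precursor nuclei and in 3.11% and 3.13% of excitatory nuclei. The oligodendrocyte-like shares were 0.233% and 0.620%. After thinning, 0.726% (0.461 to 1.09) and 1.19% (0.855 to 1.61) of excitatory nuclei were positive. Oligodendrocyte-like shares were then 0.129% (0.00326 to 0.715) and 0.420% (0.169 to 0.863). These intervals overlap within each band, so after thinning GFRA1 was not distinguishable from background by share. By the full counts, oligodendrocyte-like levels were 0.964 CPM (0.117 to 3.48) and 4.51 CPM (2.72 to 7.05), below the excitatory intervals. Excitatory neurons held 30.7% and 42.1% of all GFRA1 UMIs.

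Most excitatory nuclei that were positive for MCHR2 or PRLR held a single UMI: 84.6% and 86.5% for MCHR2, and 90.8% and 89.7% for PRLR. RXFP1, LGR5, FSHR and GFRA1 had a heavier tail. A single UMI was found in 45.6% and 44.4% of RXFP1-positive nuclei, and 41 and 17 nuclei had 5 or more. The highest count of any receptor in 1 excitatory nucleus was 44 UMIs of LGR5, in the upper band. Nuclei positive for MCHR2 or FSHR were deeper than the negative ones (12031 against 10687 UMIs in the upper band for MCHR2, and 11975.5 against 10261 for FSHR), while RXFP1-positive nuclei were slightly shallower than the RXFP1-negative ones (9917 against 10867).

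The 6 receptors then were placed among subgroups of the excitatory neurons, which were clustered again and are called here by their 3 leading genes. Of 21 subclusters, the 19 with at least 50 nuclei were ranked. FSHR was detected in each of them, and the other 5 receptors had a median over the ranked subclusters of 6.35 CPM (LGR5) or less. Because these genes helped to form the subclusters and were picked for this pattern, the levels are given as a description. The heat map by subcluster orders the subclusters by CUX2.

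**Figure D2:**
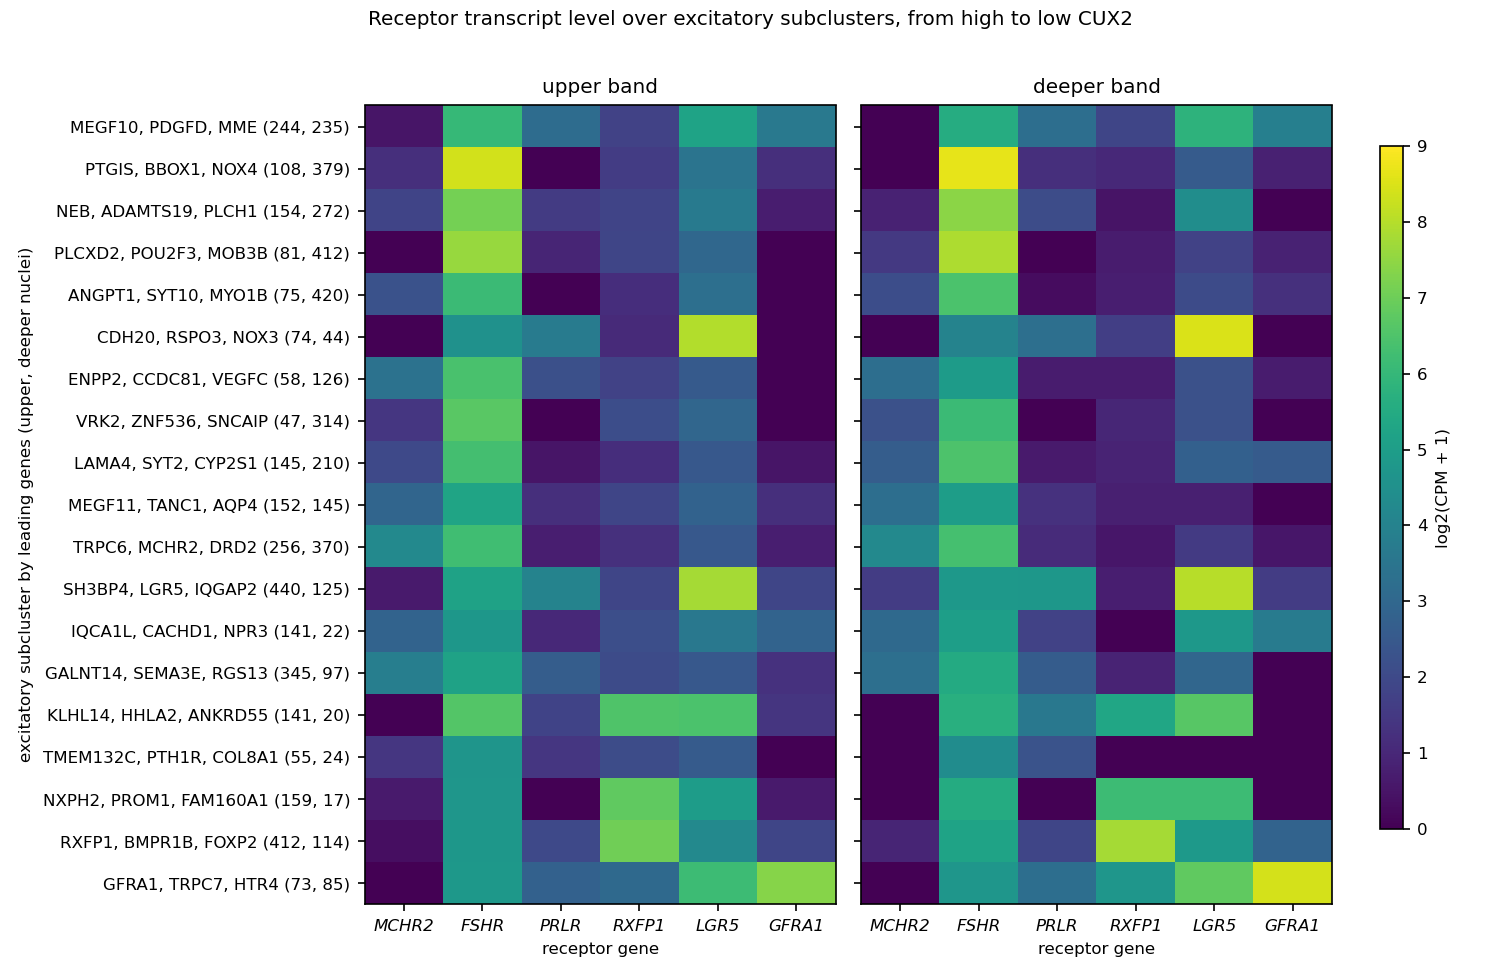
Level of each receptor gene, as log2(CPM + 1), in 19 excitatory subclusters of the upper-band (left) and deeper-band (right) libraries; rows are subclusters named by 3 leading genes with their upper-band and deeper-band nuclei, ordered from high to low CUX2. FSHR stands highest in the PTGIS-led row, LGR5 in the CDH20-led and SH3BP4-led rows, and RXFP1 and GFRA1 in the bottom rows, where CUX2 is low.

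MCHR2 was highest in the subcluster led by TRPC6, MCHR2 and DRD2, at 17.9 CPM, followed by the one led by GALNT14, SEMA3E and RGS13 at 12.5 CPM, against a median of 1.49 CPM over the ranked subclusters. The first of these had high CUX2 (469 CPM) and low RORB (21.8 CPM), and the second had neither (21.2 and 34.2 CPM). The TRPC6-led subcluster held 36.5% of excitatory MCHR2 UMIs. Its level was 17.8 CPM in 256 upper-band and 17.9 CPM in 370 deeper-band nuclei, so the bands did not differ there beyond counting error. In the smaller leading subcluster of a higher resolution the log2 ratio, deeper over upper band, was 2.51 (0.24 to 5.76).

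FSHR was detected in every ranked subcluster, from 20.1 CPM upward, with a median of 47.9 CPM. It peaked at 383 CPM in the subcluster led by PTGIS, BBOX1 and NOX4, where 85.2% of 108 upper-band nuclei and 83.4% of 379 deeper-band nuclei had a UMI. The PLCXD2-led subcluster followed at 231 CPM and the NEB-led one at 158 CPM. All 3 had both CUX2 and RORB at high levels, with RORB at 1165, 712 and 939 CPM. The MEGF10-led subcluster had more RORB than any of them (1551 CPM) and held FSHR at 56.1 CPM, so a high RORB level did not go with high FSHR in every subcluster.

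LGR5 and PRLR shared their subclusters. LGR5 stood at 287 CPM in the subcluster led by CDH20, RSPO3 and NOX3 and at 230 CPM in the one led by SH3BP4, LGR5 and IQGAP2. PRLR stood at 11.2 and 17.6 CPM in the same subclusters, its highest 2. Outside them LGR5 was next at 92.6 CPM in the GFRA1-led and 87.6 CPM in the KLHL14-led subcluster. Its median was 6.35 CPM, and that of PRLR was 1.63 CPM. The CDH20-led subcluster was rich in CUX2 and RORB (668 and 1048 CPM) and the SH3BP4-led one had RORB (281 CPM) with little CUX2 (27.6 CPM). FEZF2 stood at 35.7 and 37.4 CPM in them.

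RXFP1 was above 20 CPM in 3 of the ranked subclusters, against a median of 1.74 CPM. It stood at 150 CPM in the subcluster led by RXFP1, BMPR1B and FOXP2, 107 CPM in the NXPH2-led and 83.3 CPM in the KLHL14-led subcluster. The first held 63.1% of excitatory RXFP1 UMIs. FOXP2 stood at 181, 126 and 54.6 CPM in these 3, and TLE4, another layer 6 gene, at 708, 1045 and 964 CPM. Next for RXFP1 was the GFRA1-led subcluster at 17.4 CPM. In the clustering made without receptor and layer genes, the GFRA1-led subcluster held RXFP1 at 40.7 CPM. GFRA1 was the most concentrated of the 6 genes: 263 CPM in the subcluster led by GFRA1, TRPC7 and HTR4, which held 64.1% of its excitatory UMIs in 73 upper-band and 85 deeper-band nuclei, and 12.5 CPM in the next ranked one. A group of 16 and 19 nuclei led by TLL1, too small to be ranked, stood at 141 CPM. TLE4 and NXPH4 were added to this description after their values were seen. The GFRA1-led subcluster had TLE4 at 754 CPM and NXPH4, a gene of layer 6b, at 30.2 CPM, with CUX2 at 6.04 CPM.

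Between bands, 2 receptors were higher in deeper-band excitatory neurons, 3 were lower and MCHR2 did not differ beyond counting error. RXFP1 was the only one past a 2-fold difference, and LGR5 and FSHR were close to it. Under other settings some crossed that line: FSHR had a log2 ratio of 1.02 with more doublets removed, and after thinning to 1500 UMIs FSHR had 1.05, LGR5 -1.11 and PRLR -1.37. The GFRA1 ratio after thinning was 0.62, with an interval of -0.045 to 1.31. Among all 15553 genes with at least 50 UMIs in excitatory nuclei, 0.797% were at least 2-fold higher in the deeper band and 2.51% at least 2-fold lower, and the median log2 ratio was -0.03 with a range of -0.73 to 0.54 from the 5th to the 95th percentile. Of the 6 receptors, all of which passed that minimum, 0 were at least 2-fold higher and 1 was at least 2-fold lower. The values of FSHR, GFRA1, RXFP1 and LGR5 lie outside that range. The members were picked with the subgroups in view, and those subgroups differ in number between bands, so these counts carry no support of their own.

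RXFP1 fell from 24.5 to 8.27 CPM, a log2 ratio of -1.57 (-1.76 to -1.38) of deeper over upper band. LGR5 had a ratio of -0.96 (-1.08 to -0.85) and PRLR of -0.67 (-1.03 to -0.31). FSHR had a ratio of 0.93 (0.86 to 0.995) and GFRA1 of 0.73 (0.49 to 0.97). MCHR2 had a ratio of 0.04 (-0.27 to 0.35). None of these intervals covers the difference between 2 animals or 2 dissections of the same band, which cannot be told apart from the band itself.

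The ratios were also computed in other cell classes. In inhibitory neurons RXFP1 was also lower in the deeper band, at a log2 ratio of -0.87 (-1.14 to -0.62), while LGR5 was nearly level at -0.18 (-0.34 to -0.01) and FSHR was level at -0.04 (-0.36 to 0.28). Over all nuclei other than excitatory neurons, the FSHR ratio was 0.00 (-0.23 to 0.23). GFRA1 was higher in deeper-band inhibitory neurons at 0.39 (0.14 to 0.64) and astrocytes at 0.83 (0.18 to 1.51), and its ratio in oligodendrocyte precursors was -0.20 (-0.55 to 0.15). These class values combine clusters that did not move alike. The larger astrocyte cluster, led by RPE65, held GFRA1 at 22.7 CPM (14.9 to 33.0) and 25.6 CPM (18.8 to 34.0), which overlap, and the MFAP5-led astrocyte cluster, with 32 of the deeper-band UMIs, had 4 upper-band and 81 deeper-band nuclei. Among inhibitory clusters GFRA1 went from 34.5 to 25.6 CPM in the MYO18B-led one, from 25.3 to 43.5 CPM in the CALB1-led one and from 54.1 to 112 CPM in the COCH-led one.

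Whether a receptor differs between bands within a subgroup was asked in a second clustering of the excitatory nuclei, which left out the 6 receptors and all layer genes. It again gave 21 subclusters. The leading one of a receptor is by definition the ranked subcluster with its highest level. For RXFP1, PRLR and LGR5 the direction inside that subcluster was opposite to the direction over all excitatory nuclei. In the first clustering, made with all genes, LGR5 was highest in the CDH20-led subcluster, with a ratio of 0.55 (0.25 to 0.85) there. In the leading subcluster at a higher resolution of that clustering the value was -0.08 (-0.30 to 0.13). The plot of band ratios sets the values side by side.

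**Figure D3:**
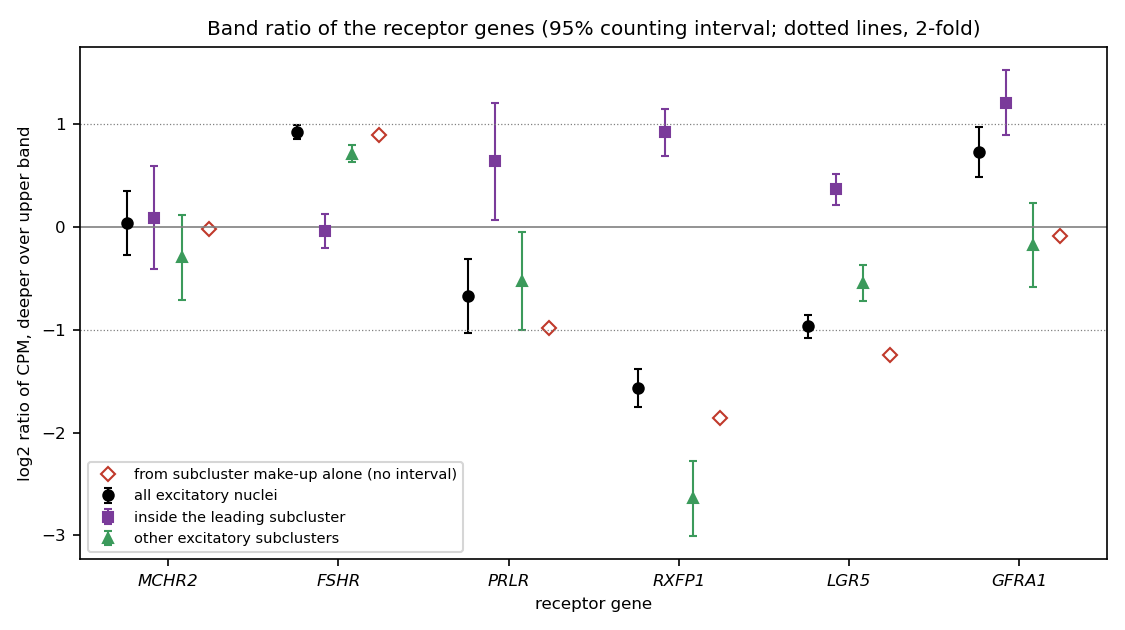
Log2 ratio of CPM, deeper over upper band, for each receptor gene in all excitatory nuclei (black), inside its leading subcluster (purple), in the other excitatory subclusters (green) and as computed from subcluster make-up alone (open diamonds); subclusters were made without receptor and layer genes, bars are 95% counting intervals and dotted lines mark 2-fold. RXFP1 is at -1.57 in all excitatory nuclei and at 0.92 inside its leading subcluster, and GFRA1 is at 0.73 and 1.20.

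RXFP1 inside its leading subcluster (BMPR1B, RXFP1 and FOXP2) was 124 CPM in 398 upper-band nuclei and 234 CPM in 105 deeper-band nuclei, a log2 ratio of 0.92 (0.69 to 1.15). Outside it the ratio was -2.63 (-3.00 to -2.28), from 12.7 to 2.04 CPM. Each ratio outside a leading subcluster pools subclusters whose numbers of nuclei differ between bands. For RXFP1 these include the NXPH2-led one (110 CPM, 154 and 18 nuclei) and the KLHL14-led one (84.1 CPM, 140 and 20 nuclei). The nuclei of the BMPR1B-led subcluster made up 12.5% of upper-band and 3.04% of deeper-band excitatory nuclei. LGR5 inside the SH3BP4-led subcluster (472 and 147 nuclei) went from 228 to 294 CPM, a ratio of 0.37 (0.22 to 0.52), and PRLR in the same subcluster from 14.9 to 23.3 CPM, a ratio of 0.65 (0.06 to 1.21). Outside it the ratios were -0.54 (-0.72 to -0.37) for LGR5 and -0.52 (-1.003 to -0.04) for PRLR.

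FSHR inside its leading subcluster (PTGIS, BBOX1 and FSHR) was 455 CPM in 73 upper-band and 443 CPM in 367 deeper-band nuclei, a ratio of -0.04 (-0.20 to 0.13). Inside its leading subcluster of the clustering made with all genes the ratio was 0.28 (0.13 to 0.43). Those nuclei made up 2.29% of upper-band and 10.6% of deeper-band excitatory nuclei. In the other subclusters FSHR had a ratio of 0.71 (0.63 to 0.79). GFRA1 inside its leading subcluster went from 140 CPM (116 to 167) to 322 CPM (286 to 362) in 93 nuclei of each band, a ratio of 1.20 (0.89 to 1.52), and the share of these nuclei with a UMI was 40.9% and 64.5%. Outside it the GFRA1 ratio was -0.17 (-0.58 to 0.24). MCHR2 inside its leading subcluster had a ratio of 0.08 (-0.41 to 0.59).

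A value from subcluster make-up alone was computed by giving each subcluster its level over both bands and letting only the numbers of UMIs per subcluster differ. It came to -1.86 for RXFP1, -1.24 for LGR5, -0.99 for PRLR, 0.89 for FSHR, -0.02 for MCHR2 and -0.09 for GFRA1. For GFRA1 this differs from the measured 0.73, and the value for each of the other 5 genes lies on the same side of 0 as the measured one or, for MCHR2, close to 0 beside it.

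Excitatory nuclei with more than 1 receptor were a minority. In the upper band 38.2% of excitatory nuclei had none of the 6 receptors, 45.1% had 1, 14.8% had 2 and 1.92% had 3. In the deeper band the shares were 40.4%, 49.6%, 8.77% and 1.07%. After thinning to 5000 UMIs, which left out 122 and 146 shallower nuclei, 58.2% and 57.0% had none and 6.24% and 4.02% had 2. The pairs were compared by the share of the second gene in nuclei with and without the first. The receptors were picked as leading genes of subgroups of these same nuclei. Pairs from the same subgroup can therefore be found together, and pairs from different subgroups apart, through that choice alone. The shares are given as a description.

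**Figure D4:**
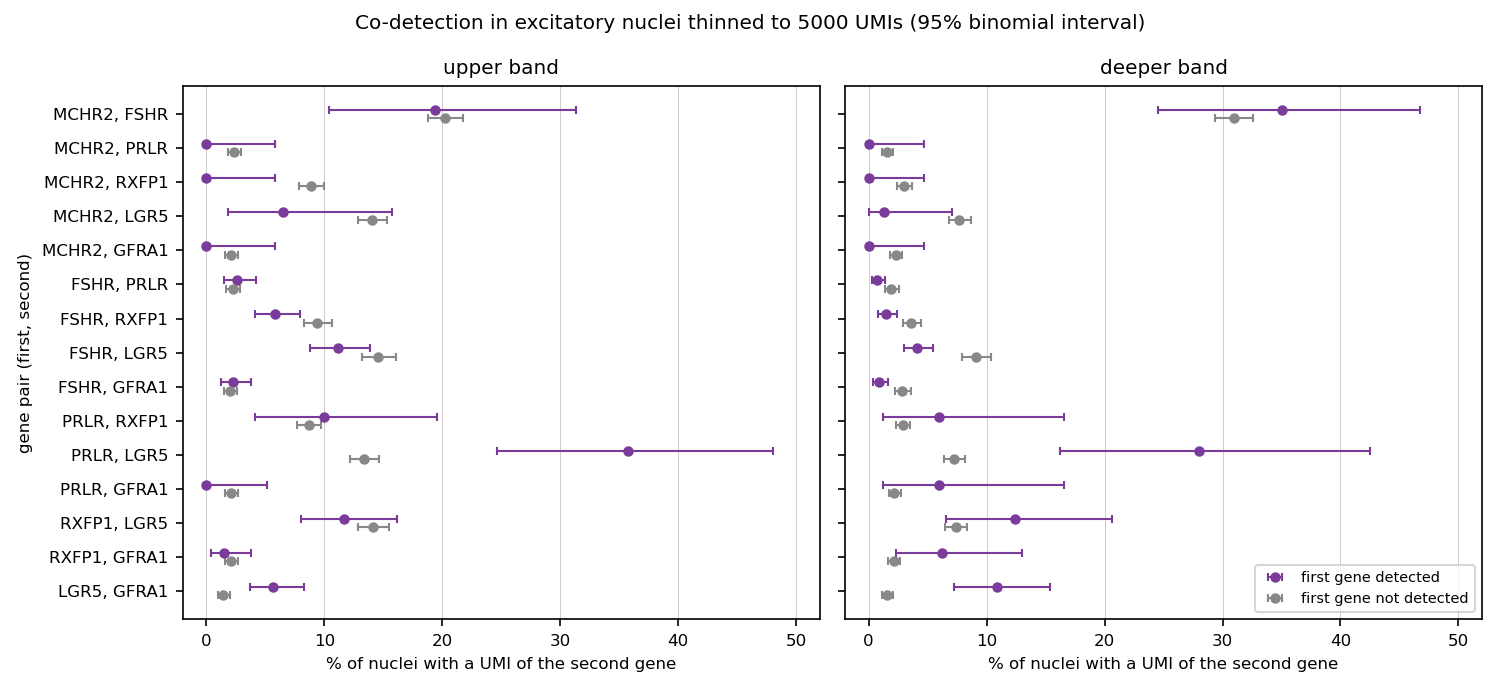
Share of excitatory nuclei with a UMI of the second gene, in nuclei with (purple) and without (grey) the first gene, for the 15 pairs of receptors in the upper-band (left) and deeper-band (right) libraries after thinning to 5000 UMIs; bars are 95% binomial intervals. PRLR and LGR5 (35.7% against 13.4% in the upper band) and LGR5 and GFRA1 (5.65% against 1.44%) are separated upward in both bands.

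Of the 15 pairs, PRLR with LGR5 and LGR5 with GFRA1 had a higher share of the second gene in nuclei with the first, with intervals that did not overlap, in both bands. LGR5 was detected in 47.1% of 153 PRLR-positive and 20.1% of PRLR-negative nuclei of the upper band, and in 44.3% of 97 and 11% in the deeper band. After thinning the shares were 35.7% (24.6 to 48.1) against 13.4% (12.2 to 14.6), and 28.0% (16.2 to 42.5) against 7.21% (6.35 to 8.16). GFRA1 was detected in 5.88% of LGR5-positive and 2.36% of LGR5-negative upper-band nuclei, and in 11.9% and 1.94% in the deeper band. After thinning these were 5.65% (3.65 to 8.29) against 1.44% (1.02 to 1.97), and 10.8% (7.27 to 15.4) against 1.54% (1.13 to 2.04). Where a nucleus had to hold 2 UMIs of each gene to count, the intervals overlapped for PRLR with LGR5 in the deeper band, at 10% (0.253 to 44.5) of 10 nuclei against 5.92% (5.16 to 6.76), and for LGR5 with GFRA1 in the upper band, at 3.05% (1.53 to 5.39) against 1.13% (0.777 to 1.60). Of GFRA1-positive nuclei, 40.4% and 45.4% had LGR5. GFRA1 was detected in 12.4% of PRLR-positive against 2.86% of PRLR-negative nuclei in the deeper band and in 1.96% against 3.17% in the upper band, from 12 and 3 nuclei positive for both. After thinning the deeper-band shares were 6% (1.25 to 16.6) and 2.18% (1.71 to 2.74), with overlapping intervals. The difference between bands was not tested.

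MCHR2 and RXFP1 were rarely found in the same nucleus. RXFP1 was detected in 2.80% (0.767 to 7.01) of 143 MCHR2-positive against 13% of MCHR2-negative nuclei in the upper band, and in 1.28% (0.156 to 4.55) of 156 against 3.76% in the deeper band, where the intervals overlap. After thinning, 0 of 62 and 0 of 77 MCHR2-positive nuclei had RXFP1, against 8.87% and 3% in MCHR2-negative nuclei. The Clopper-Pearson upper limits of these 0 shares were 5.78% and 4.68%, and 3 counts would be 4.84% and 3.90%. LGR5 was likewise less frequent with MCHR2 in the upper band, at 6.99% (3.40 to 12.5) against 22.0%, and in the deeper band the shares were 7.69% (4.04 to 13.1) and 12.2%, with overlapping intervals. FSHR-positive nuclei had less LGR5 than FSHR-negative ones, at 18.0% against 23.1% and 7.67% against 15.5%, and less RXFP1, at 9.89% against 13.9% and 2.32% against 4.73%. After thinning, the LGR5 shares were 11.1% (8.78 to 13.9) against 14.6% (13.2 to 16.0) in the upper band, where the intervals overlap, and 4.09% (2.96 to 5.48) against 9.08% (7.93 to 10.3) in the deeper band. Those of RXFP1 were 5.82% (4.11 to 7.96) against 9.41% (8.29 to 10.6) and 1.46% (0.819 to 2.40) against 3.60% (2.87 to 4.44). MCHR2 and FSHR showed no such pattern. FSHR was detected in 39.2% of MCHR2-positive and 34.1% of MCHR2-negative nuclei of the upper band and in 44.9% and 44.9% of the deeper band.

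The layer genes of receptor-positive nuclei were compared with those of receptor-negative nuclei within each band, as log2 ratios of CPM. RXFP1-positive nuclei showed the widest separation. The map of layer genes gives 11 of them for all 6 receptors.

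**Figure D5:**
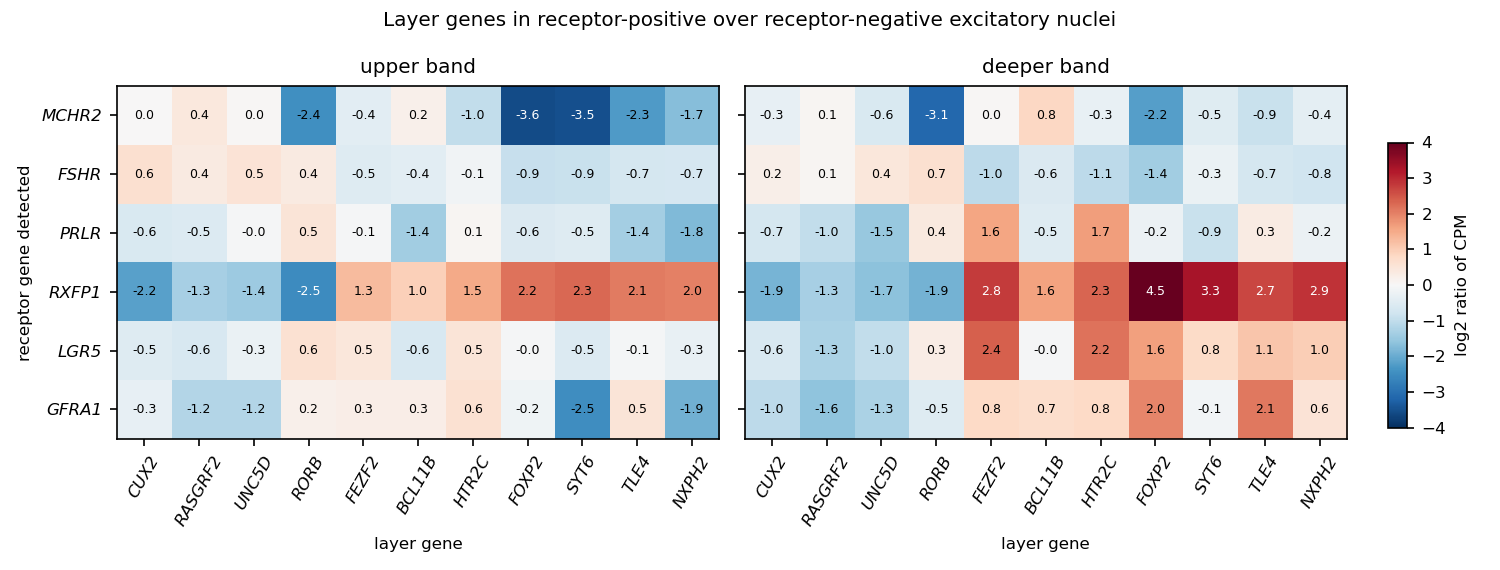
Log2 ratio of CPM, receptor-positive over receptor-negative excitatory nuclei, for 11 layer genes (columns) and 6 receptor genes (rows) in the upper-band (left) and deeper-band (right) libraries; numbers in the cells are the ratios, red is higher and blue lower in positive nuclei. RXFP1-positive nuclei are high in FOXP2, SYT6 and FEZF2 and low in CUX2 and RORB in both bands, and MCHR2-positive nuclei are low in RORB and FOXP2 in both bands.

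RXFP1-positive nuclei held more FOXP2, the transcription factor known from layer 6, at 116 against 25.5 CPM in the upper band, a ratio of 2.18 (2.02 to 2.34), and 110 against 4.98 CPM in the deeper band, a ratio of 4.47 (4.14 to 4.79). FEZF2 had ratios of 1.27 (1.08 to 1.46) and 2.79 (2.34 to 3.22). NXPH4 was the highest of the layer genes in the upper band at 3.09 (2.36 to 3.81). CUX2 was lower, at -2.17 (-2.34 to -2.01) and -1.86 (-2.06 to -1.66), as was RORB, at -2.52 (-2.71 to -2.34) and -1.89 (-2.13 to -1.66). The lowest layer gene of the deeper band was LHX2 at -2.21 (-3.34 to -1.28). Of 29 layer genes with enough counts in the upper band, 8 were at least 2-fold higher and 7 at least 2-fold lower, where 2.56% and 5.09% of all genes were. In the deeper band 12 of 28 were higher and 7 lower, where 5.24% and 9.65% of all genes were. The median layer gene stood at 0.58 and 0.67. These nuclei also held the astrocyte marker list at a summed 287 and 255 CPM, against 155 and 105 CPM in RXFP1-negative nuclei. SLC1A2, a glutamate transporter gene, made up 277 and 243 CPM of that sum. Of the 10 astrocyte markers, 7 and 6 were detected in the 399 and 126 positive nuclei. In the 2785 and 3328 negative ones 9 and 8 were detected, and groups of such unlike size cannot be compared by that count. GFAP was at 0 UMIs in the positive nuclei of both bands, and ALDH1L1 in positive and negative nuclei alike. Its part in the result was not tested.

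FSHR-positive nuclei held more CUX2, of the upper-layer list, and more RORB, of the layer 4 list, by small amounts. CALB1, also of the upper-layer list, was at least 2-fold lower in the upper band. CUX2 was the highest layer gene in the upper band at 0.63 (0.58 to 0.69) and stood at 0.23 (0.20 to 0.27) in the deeper band. RORB stood at 0.35 (0.30 to 0.41) and at 0.65 (0.61 to 0.70), the highest of the deeper band. FOXP2 was lower, at -0.94 (-1.12 to -0.75) and -1.39 (-1.76 to -1.03), and FEZF2 at -0.52 (-0.69 to -0.34) and -1.04 (-1.42 to -0.67). NXPH4 was the lowest, at -1.91 (-3.04 to -0.93) and -1.85 (-2.90 to -0.91). No layer gene was 2-fold higher in either band (0 of 29 and 0 of 28), where 0.272% and 0.290% of all genes were, and 2 and 4 were 2-fold lower, where 0.415% and 0.782% of all genes were. The median layer gene stood at -0.16 and -0.27. The astrocyte markers summed to 128 and 88.1 CPM in FSHR-positive against 196 and 131 CPM in FSHR-negative nuclei, and the part of this in the result was not tested.

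MCHR2-positive nuclei were low in RORB and FOXP2 in both bands. RORB had ratios of -2.44 (-2.73 to -2.17) and -3.15 (-3.44 to -2.87), and FOXP2 of -3.59 (-5.03 to -2.46) and -2.20 (-4.08 to -0.83), from 6 and 4 UMIs in the positive nuclei. CUX2 was level in the upper band at 0.03 (-0.09 to 0.15) and slightly lower in the deeper band at -0.33 (-0.42 to -0.24). FEZF2 stood at -0.44 (-0.88 to -0.02) and 0.05 (-0.78 to 0.77). The highest layer genes were CCN2 at 0.66 (-0.83 to 1.86) in the upper band and NR4A2 at 1.01 (0.45 to 1.52) in the deeper band. NXPH4 was at 0 UMIs in the positive nuclei of both bands, against 69 and 57 UMIs in the negative ones. At least 2-fold lower were 9 of 29 and 7 of 28 layer genes, where 6.19% and 5.97% of all genes were, and at least 2-fold higher were 0 and 1, where 1.44% and 1.22% were. The astrocyte markers were lower too, at a summed 104 and 68.0 CPM against 173 and 113 CPM, and their part in the result was not tested.

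PRLR-positive and LGR5-positive nuclei had a like profile in CUX2 and RORB. CUX2 was lower in both, at -0.61 and -0.71 for PRLR and -0.52 and -0.65 for LGR5. RORB was higher, at 0.50 (0.40 to 0.60) and 0.40 (0.29 to 0.51) for PRLR and 0.60 (0.54 to 0.65) and 0.31 (0.25 to 0.37) for LGR5. FEZF2 separated the bands. It stood at -0.06 (-0.44 to 0.30) in the upper band and 1.57 (0.93 to 2.16) in the deeper band for PRLR, and at 0.46 (0.28 to 0.64) and 2.38 (2.03 to 2.72) for LGR5. The FEZF2 level of receptor-negative nuclei was itself lower in the deeper band, 7.04 against 34.1 CPM beside PRLR and 4.89 against 31.4 CPM beside LGR5. FOXP2 stood at -0.58 (-1.02 to -0.17) and -0.24 (-1.38 to 0.71) for PRLR, and at -0.04 (-0.23 to 0.15) and 1.64 (1.29 to 1.98) for LGR5. At least 2-fold higher in PRLR-positive nuclei were 1 of 29 and 5 of 28 layer genes, where 1.65% and 4.40% of all genes were. The same counts for LGR5 were 1 and 9, where 1.14% and 3.48% were. At least 2-fold lower were 5 and 5 for PRLR, where 4.79% and 7.09% were, and 1 and 3 for LGR5, where 1.70% and 2.72% were. The highest layer genes were NXPH4 at 1.57 and HTR2C at 1.66 for PRLR, and SCUBE1 at 1.07 and FEZF2 for LGR5. The lowest were CALB1 at -1.80 and TSHZ2 at -2.11 for PRLR, and MDGA1 at -1.24 and -1.36 for LGR5. LGR5-positive nuclei held astrocyte markers at a summed 223 and 203 CPM against 154 and 96.6 CPM, and PRLR-positive nuclei held microglia markers at 15.9 and 22.5 CPM against 15.1 and 11.1 CPM. Their part in these results was not tested.

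GFRA1-positive nuclei were high in NXPH4 and NR4A2, genes known from layer 6b and the subplate, the latter singled out after its values were seen. Other genes of that list did not all move the same way. In the upper band CCN2 was at least 2-fold higher, and MOXD1 and NXPH2 were at least 2-fold lower. MOXD1 was the lowest layer gene of the deeper band. NXPH4 had ratios of 2.18 (0.98 to 3.20) and 3.79 (2.91 to 4.62), from 9 and 19 UMIs in the positive nuclei, and was the highest layer gene in both bands. NR4A2 stood at 1.84 (1.26 to 2.37) and 2.47 (2.03 to 2.89). CUX2 was lower, at -0.32 (-0.50 to -0.15) and -1.04 (-1.19 to -0.90), and FOXP2 stood at -0.18 (-0.68 to 0.29) and 1.96 (1.44 to 2.44). SYT6, another layer 6 gene, was the lowest in the upper band at -2.47 (-4.10 to -1.24). RORB stood at 0.19 (0.04 to 0.33) and -0.50 (-0.65 to -0.36), but the upper-band value turned negative under 3 of the other settings tried, which makes its direction uncertain. At least 2-fold higher were 5 of 29 and 7 of 28 layer genes, where 3.84% and 5.74% of all genes were, and at least 2-fold lower were 8 and 4, where 6.91% and 7.87% were. In these nuclei the astrocyte markers summed to 320 and 469 CPM against 165 and 97.1 CPM in GFRA1-negative nuclei, with SLC1A2 making up 313 and 460 CPM. Of the 10 astrocyte markers, 3 and 7 were detected in the 99 and 108 GFRA1-positive nuclei. In the 3085 and 3346 negative ones 9 and 8 were detected, and groups of such unlike size cannot be compared by that count. GFAP was at 0 UMIs in the positive nuclei of both bands, while ALDH1L1 was at 0 in the negative nuclei too. The oligodendrocyte precursor markers, of the class with the highest GFRA1, summed to 284 and 320 CPM against 161 and 219 CPM in GFRA1-negative nuclei, with PTPRZ1 making up 223 and 278 CPM and OLIG2 at 0 UMIs in the upper band. The vascular markers summed to 65.8 and 114 CPM against 52.5 and 43.1 CPM. The part of RNA from these cell types in the GFRA1 result was not tested.

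The ligands and partners of the 6 receptors were taken from a list of 46 genes. Of these, 35 are in the feature tables and 20 had at least 50 UMIs over all nuclei. Another 7 were at 0 UMIs in both libraries (PMCH, FSHB, PRLH, PRLHR, RLN3, RSPO1 and ARTN). PMCH encodes the precursor of melanin-concentrating hormone, FSHB the beta subunit of follicle-stimulating hormone, and RLN3 a peptide of the relaxin family. Most other ligands were sparse, with GDNF at 41 UMIs over all nuclei and prolactin (PRL) at 26. Of the 19 partner genes with at least 50 UMIs in excitatory nuclei, 0 were at least 2-fold higher and 1 was at least 2-fold lower in the deeper band, with a median log2 ratio of -0.11 beside -0.03 for all genes. The 1 was RSPO3.

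RSPO3, an R-spondin that binds LGR5, went from 25.4 to 9.32 CPM in excitatory neurons, a log2 ratio of -1.45 (-1.63 to -1.27). It stood at 171 CPM in the CDH20-led subcluster, where LGR5 was highest, at 44.1 CPM in the SH3BP4-led subcluster, and highest, at 200 CPM, in the TMEM132C-led subcluster, where LGR5 stood at 3.49 CPM. LGR5-positive nuclei held RSPO3 at 49.0 against 18.6 CPM in LGR5-negative nuclei of the upper band and at 33.0 against 5.88 CPM in the deeper band. RSPO2 was a gene of inhibitory neurons, at 140 and 139 CPM, with 1.95 and 2.04 CPM in excitatory ones. The paralog LGR6 peaked at 35.5 CPM in the GFRA1-led subcluster and LGR4 at 73.8 CPM in the same one. The Wnt co-receptor gene LRP5 peaked in the CDH20-led subcluster at 19.3 CPM, while LRP6 ranged from 130 to 185 CPM over the ranked subclusters. ZNRF3, a ligase that removes Wnt receptors, had its highest level in astrocytes at 371 and 333 CPM, against 45.8 and 42.2 CPM in excitatory neurons. Excitatory neurons still held 3324 of its 5952 UMIs over all nuclei.

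MCHR1, the first receptor for melanin-concentrating hormone, was higher in deeper-band excitatory neurons at 10.5 against 7.39 CPM, a ratio of 0.50 (0.28 to 0.73). It was highest in the TRPC6-led subcluster, as MCHR2 was, at 17.5 CPM. TSHR, the paralog of FSHR for thyrotropin, gave 66 excitatory UMIs and 0.37 CPM in the FSHR-leading subcluster. GHR, the growth hormone receptor and a relative of PRLR, stood at 148 and 177 CPM with a ratio of 0.26 (0.20 to 0.31), was highest in the GFRA1-led subcluster at 416 CPM, and stood at 89.4 CPM where PRLR led. JAK2 and STAT5B, through which PRLR signals, were level between bands at 0.00 (-0.06 to 0.05) and -0.11 (-0.32 to 0.10). SOCS2, a feedback inhibitor of that pathway, stood at -0.42 (-1.14 to 0.27).

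RXFP2, the paralog of RXFP1, was highest in the TMEM132C-led subcluster at 55.9 CPM and next in the SH3BP4-led one at 16.1 CPM, with 1 UMI in the subcluster where RXFP1 led. The GDNF family receptor GFRA2 was spread over excitatory neurons at 82.5 and 78.6 CPM and stood at 13.4 CPM where GFRA1 led. RET, the kinase that GFRA1 presents GDNF to, gave 57 excitatory UMIs, too few to read the count of 0 in the GFRA1-led subcluster as absence, and 1 and 2 UMIs in GFRA1-positive nuclei of the upper and deeper band. NCAM1 stood in that subcluster at 1632 CPM. SDC3, a heparan sulphate proteoglycan gene, stood at 12.5 and 13 CPM in excitatory neurons of the upper and deeper band. GFRA3 gave 64 excitatory UMIs.

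Genes with the most similar pattern were sought by Pearson's r of log2(CPM + 1) over 32 points, the excitatory subclusters of each band with at least 50 nuclei, among 9155 genes with a symbol. The points share libraries and nuclei, and the values are a description. Closest to LGR5 were DKK1, a secreted Wnt antagonist, at 0.91, SULF2 at 0.87 and PHYHIPL at 0.84. Closest to RXFP1 were MDGA2 at 0.91, PTGER3, a prostaglandin E receptor gene, at 0.90 and PTPRU at 0.88. For GFRA1 they were RNF220 at 0.85, MLLT3 at 0.81 and CDHR1 at 0.80, for FSHR PKP1 and DDX10 at 0.83 and PTGIS at 0.80, and for MCHR2 CDADC1 at 0.82, EML6 at 0.81 and CCHCR1 at 0.79. PRLR was closest to PRDM1 at 0.77, ACSS3 at 0.75 and LGR5 itself at 0.75. Between the other receptors the widest values were -0.66 for LGR5 and MCHR2 and 0.48 for LGR5 and GFRA1. In each band alone DKK1 stayed among the 3 closest to LGR5, at 0.87 over 18 points and 0.95 over 14. Other lists changed. LGR5 was not among the 3 closest to PRLR in either band alone, at 0.64 and 0.87. In the deeper band the 3 closest to GFRA1 were MROH9, KBTBD2 and AP3B1, none of which is in its list over both bands.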

How the data were processed

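Nuclei from frozen somatosensory cortex were released by douncing, cleaned on a density gradient and captured in droplets, per the labels' protocols, with 8000 nuclei targeted per library. The deposited matrices hold UMI counts per gene and nucleus, not normalized. Cell Ranger 6.2.1 and 2.1.1 are named in the submitters' processing notes. The genome build is not given in the sources used here. The libraries held 7151 (upper band) and 9694 (deeper band) barcodes with 66253015 and 78352064 UMIs.

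Nuclei with at least 500 genes were kept, and Scrublet removed 830 (11.7%) and 1458 (15.2%) as doublets. Both libraries were clustered together with scanpy 1.11.5 and igraph 0.11.9 (Leiden, 2000 variable genes, 30 principal components, 15 neighbours, resolution 1) under Python 3.11.15, giving 27 clusters. Clusters were named from marker lists, by a scoring rule set after the clusters were seen, and 3 stayed unnamed (372 and 611 nuclei). Excitatory nuclei were clustered again in the same way, once with and once without the receptor and layer genes. Free RNA was not removed.

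Levels are UMIs summed per class and band, per 1000000 UMIs of that sum (CPM). Intervals at 95% are exact Poisson for levels, Clopper-Pearson for shares and conditional binomial for ratios (scipy 1.17.1), and cover counting error only. A share of 0 allows up to 3 counts. Thinning was to 1500 UMIs for classes and 5000 for excitatory nuclei. Ratios over genes required at least 50 UMIs, and the comparison of patterns 200 UMIs with a pseudocount of 1. The steps were tested on simulated data.

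The members and all gene lists were chosen with earlier results of these data known. Named were the 6 receptors, the partner genes with at least 50 UMIs, CUX2, RORB, FEZF2 and FOXP2, the highest and lowest layer gene for each receptor, and the 3 genes most similar to each. No sequence is shown. Alternatives varied the doublet removal, gene minimum, depth, clustering, scaling and the count that makes a nucleus positive. One further alternative is not reported here.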

Additional observations from a re-analysis of the deposited data

Results flagged for a closer look

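For 3 receptors the band ratio had opposite directions inside and outside the leading subcluster of the clustering made without receptor and layer genes. The outside value pools subclusters whose numbers of nuclei differ between bands, so it is not a ratio within a subgroup. RXFP1 had a log2 ratio, deeper over upper band, of 0.92 inside the BMPR1B-led subcluster and -2.63 in the other excitatory subclusters. PRLR had 0.65 inside the SH3BP4-led subcluster and -0.52 outside it. LGR5 had 0.37 inside the same subcluster and -0.54 outside it. RORB, the layer 4 gene, stood at 0.19 in GFRA1-positive over GFRA1-negative nuclei of the upper band and at -0.50 in the deeper band. With 1 library per band, none of these differences was tested.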

How the results depend on the processing

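The direction of the band ratio in all excitatory nuclei held under each alternative reported here for the 5 receptors whose interval excludes 0. MCHR2, whose interval includes 0, ranged from -0.038 (mean of the CPM of each nucleus) to 0.25 (2 times as many doublets removed). The size of the ratio moved beyond the counting interval for FSHR (1.02 with 2 times as many doublets removed, 1.05 after thinning to 1500 UMIs), PRLR (-1.37 after thinning) and LGR5 (-1.11 after thinning), values past 2-fold, while the GFRA1 interval included 0 after thinning. The share of all genes past 2-fold rose from 3.31% to 10.7% with no minimum of UMIs. Inside the leading subcluster, FSHR went from 0.28 to -0.038 without receptor and layer genes, -0.071 at resolution 2 and -0.084 with no doublet removal, and LGR5 from 0.55 to -0.080 at resolution 2. RORB in GFRA1-positive nuclei of the upper band turned from 0.19 to -0.28 (2 UMIs or more), -0.12 (thinned to 5000 UMIs) and -0.13 (no doublet removal). FOXP2 in PRLR-positive nuclei of the upper band turned from -0.58 to 0.038 (2 UMIs or more), and the GFRA3 band ratio from -0.87 to 0.88 after thinning. The causes were not tested. The LGR5 share of UMIs in its leading subcluster was 13.4%, and 61.7% without receptor and layer genes. These are different groups of nuclei, the CDH20-led subcluster (74 and 44 nuclei) and the SH3BP4-led one (472 and 147 nuclei). Of the co-detection values 60 stayed within their intervals and 14 moved, and of the layer gene ratios 75 stayed, 61 moved and 4 reversed. No paired analysis was possible because each band had a single library, and for the same reason no library could be left out. MCHR2 and PRLR gave under 200 excitatory UMIs in each band, which limits what can be said of them by nucleus.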

Other observations

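Some receptors were high in small groups of other cells, singled out after their values were seen. FSHR stood at 307 CPM (228 to 403) in 22 upper-band nuclei and 187 CPM (113 to 292) in 12 deeper-band nuclei of the inhibitory cluster led by CHODL and NOS1, genes known from long-range inhibitory neurons, and 68.2% and 75.0% of those nuclei had a UMI. GFRA1 stood at 54.1 CPM (42.9 to 67.4) and 112 CPM (92.1 to 135) in the inhibitory cluster led by COCH, MCTP2 and PROK2. It also stood at 214 CPM (146 to 302) in 81 deeper-band nuclei of the astrocyte cluster led by MFAP5, GFAP and CD44, of which the upper band held 4 nuclei. LGR5 in the CALB1-led inhibitory cluster, where RXFP1 was highest among the inhibitory clusters, stood at 121 and 82.5 CPM.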
